A study of Caenorhabditis elegans with 2 samples.

Results

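The heat shock and chaperone genes of Caenorhabditis elegans were examined in ChIP-seq peak lists of GFP-tagged F57C9.4. They were the 61 protein-coding genes of 19973 on the nuclear chromosomes of the Ensembl WBcel235 annotation that are named hsp-, dnj- or cct-, together with F44E5.4 and F44E5.5. By family they comprise 8 HSP70 genes, 2 HSP90 genes, the HSP60 gene, 13 small heat shock protein genes, 29 DnaJ genes and 8 genes of the CCT chaperonin. By the compartment of their product, 25 were assigned to the cytosol, 6 to the endoplasmic reticulum (ER) and 6 to the mitochondrion, and 24 were not assigned.

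HSP70 proteins bind exposed hydrophobic stretches of unfolded proteins and release them with ATP, DnaJ proteins bring them clients and speed their ATP hydrolysis, and small heat shock proteins hold unfolding proteins in a soluble state. CCT is a ring that folds actin and tubulin, and HSP90 acts late in the folding of kinases and receptors. Cytosolic stress genes are known targets of the heat shock factor HSF-1, which reads arrays of inverted GAA units, whereas the ER and mitochondrial chaperones are induced by their own unfolded protein responses.

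Chromatin came from whole, mixed-sex young adults of strain OP550, collected 66 h after release from starved L1 arrest. Every animal carried unc-119(tm4063) and the transgene wgIs550, in which F57C9.4 is fused at its C terminus to GFP and FLAG, and sonicated chromatin was pulled down by way of the GFP tag with anti-GFP. There were 2 biological replicates, numbered 5 and 6, with 1 library each, and no second genotype, stage or treatment, so no heat shock is part of the design. In whole animals, strong occupancy in a few cells and weak occupancy in many cannot be told apart, and the level at which the transgene was made was not measured here.

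Each replicate list and the list from pooled reads held 30000 intervals with a summit and a signal value from the authors' peak caller. The optimal IDR list, thresholded by the authors on reproducibility between replicates, held 360 intervals. These were exactly the 360 best of the pooled list. An IDR interval need not be high in both replicates: 257 of the 360 were among the 360 best of replicate 5 and 215 among those of replicate 6. Because the signal scale differed between lists (the median was 25.8 pooled, 18.5 in replicate 5 and 12.3 in replicate 6), lists were compared by rank, where rank 1 is the highest signal. For each gene the best interval with its summit within 500 bp of an annotated transcript start was taken. With peak lists, 1 group and 2 libraries there is no test between samples, so counts are given beside the share of all protein-coding genes counted in the same way.

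Of the 61 genes, 6 had a start with an IDR summit in its 500 bp window (9.84%), against 188 of all 19973 protein-coding genes (0.941%). They were the stress-inducible HSP70 pair F44E5.4 and F44E5.5, cct-8, which encodes a CCT subunit, hsp-90, dnj-20 and hsp-3. F44E5.4 and F44E5.5 share 1 summit, so the 6 genes rest on 5 summits, of which 3 lay outside annotated genes and 2 in introns. All 5 had a counterpart on the same chromosome with a signal within 0.1% in the authors' list on build ce10, as did 352 of all 360. That list comes from the same 2 replicates and positions were not matched, so a counterpart is no independent support.

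The DNA under these summits is shown because the heat shock and ER stress motifs lie in it or are missing from it. Bases are from the RefSeq sequence of WBcel235, the assembly also called ce11. Capitals mark pairs of inverted heat shock units, spelled TTCNNGAA or GAANNTTC, each of which reads the same on both strands, and in hsp-3 the core TGACGTG of ER stress elements. The stretches are chrII:11759355-11759594 on the plus strand for F44E5.4 and F44E5.5, chrV:14685673-14685873 on the plus strand for hsp-90, chrIV:1094263-1094463 on the minus strand for cct-8, and chrX:6092125-6092298 on the minus strand for hsp-3.
F44E5.4 and F44E5.5: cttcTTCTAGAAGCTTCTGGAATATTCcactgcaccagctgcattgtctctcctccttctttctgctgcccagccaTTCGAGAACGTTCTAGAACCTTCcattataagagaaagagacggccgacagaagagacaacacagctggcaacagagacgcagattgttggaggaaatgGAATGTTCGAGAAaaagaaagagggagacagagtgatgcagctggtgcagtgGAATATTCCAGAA
hsp-90: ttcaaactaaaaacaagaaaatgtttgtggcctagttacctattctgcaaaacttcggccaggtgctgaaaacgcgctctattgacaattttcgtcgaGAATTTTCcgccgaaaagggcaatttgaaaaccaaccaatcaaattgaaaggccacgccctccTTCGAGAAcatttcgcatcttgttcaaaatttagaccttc
cct-8: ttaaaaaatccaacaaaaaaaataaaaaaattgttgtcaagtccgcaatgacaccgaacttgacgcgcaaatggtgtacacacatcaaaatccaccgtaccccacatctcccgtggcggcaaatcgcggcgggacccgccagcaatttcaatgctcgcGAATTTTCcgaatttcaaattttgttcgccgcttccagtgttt
hsp-3: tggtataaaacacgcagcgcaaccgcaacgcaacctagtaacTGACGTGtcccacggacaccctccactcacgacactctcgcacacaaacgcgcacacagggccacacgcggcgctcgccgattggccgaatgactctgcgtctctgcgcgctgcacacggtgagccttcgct
The F44E5.4 and F44E5.5 stretch is the whole deposited interval of 240 bp and holds 12 unit pairs, several of which overlap to form longer arrays. The hsp-90 stretch holds 2 separate pairs, the cct-8 stretch holds 1, and the hsp-3 stretch holds no pair but 1 TGACGTG. In the same window around the dnj-20 summit none of these motifs was found.

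The strongest interval of the whole gene set lay between the divergent genes F44E5.4 (WBGene00009691) and F44E5.5 (WBGene00009692). Its summit at position 11759486 of chromosome II was 175 bp upstream of the start of F44E5.4 and 176 bp upstream of that of F44E5.5. Its signal was 151 in the pooled list (rank 14, q = 0.00493), 111 in replicate 5 (rank 8) and 42.5 in replicate 6 (rank 109). All 3 lists thus placed it among their 360 best, and the replicate summits fell 5 bp to one side and 3 bp to the other of the pooled summit. The region of 350 bp between the genes holds an inverted repeat, with arms of 105 and 109 bp identical in 102 of 110 aligned positions (92.7%). It also holds 14 unit pairs and 10 runs of 3 adjoining units of alternating direction, and the pooled summit lies in the stretch between the inner arrays, where the nearest pairs are centred 36 bp on one side and 48 bp on the other.

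**Figure D1:**
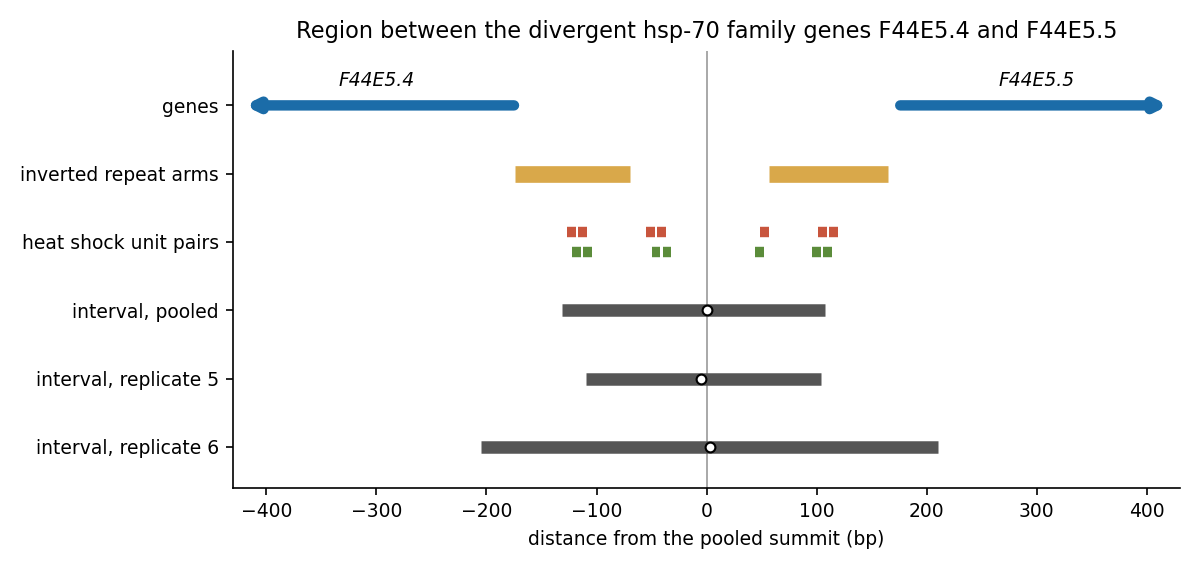
Map of the region between F44E5.4 and F44E5.5, with distance from the pooled summit in bp on the x axis. Arrows are the genes, yellow bars the inverted repeat arms, red marks TTCNNGAA and green marks GAANNTTC, grey bars the deposited intervals and open circles their summits. The replicate summits fall 5 bp and 3 bp from the pooled summit, between the unit arrays.

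The copies limit what the reads can show here. F44E5.4 and F44E5.5 are 99.9% identical over 2195 aligned bases, and 26.6% of the 31-base words within 500 bp of their starts occur once in the genome. Within 100 bp of the summit that share was 68.8%. The sources used here do not state the read length or how reads with several matches were treated, and the part of repeated sequence in the interval's height was not tested. Leaving out this pair, 4 of the other members had an IDR summit.

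hsp-90 encodes the cytosolic HSP90. Its signal was 85.1 in the pooled list (rank 156), 55.7 in replicate 5 (rank 155) and 35.8 in replicate 6 (rank 212), so it stood among the 360 best in each. The summit lay in an hsp-90 intron, 387 bp upstream of the second annotated start, and the start of C47E8.4 was nearer, at 288 bp. cct-8 had a signal of 90 in the pooled list (rank 130), 45.6 in replicate 5 (rank 352) and 43.3 in replicate 6 (rank 103). Here too a neighbour was nearer: the summit was 443 bp upstream of cct-8 and 178 bp from the start of Y55F3AR.2. An assignment of these intervals to the chaperone genes therefore rests on the 500 bp window, and with only the nearest coding start counted, 3 of the 61 genes kept an IDR summit, against 0.781% of all coding genes.

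Among ER genes, hsp-3 encodes a BiP-type HSP70 and dnj-20 the worm counterpart of the ER co-chaperone ERdj3. hsp-3 had a signal of 69.1 in the pooled list (rank 324), 54.2 in replicate 5 (rank 172) and 29.8 in replicate 6 (rank 441), with the pooled summit 74 bp upstream of a start. dnj-20 had 77.5 in the pooled list (rank 212), 50.9 in replicate 5 (rank 225) and 27 in replicate 6 (rank 681). Both were thus among the 360 best in replicate 5 and outside them in replicate 6. The dnj-20 summit was 358 bp upstream of an internal start and 4648 bp from the 5′ end of the gene, and the replicate 6 interval that holds this summit ranked 1234, lower than the best one in the window.

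hsp-1, the constitutive cytosolic HSP70, stood just outside the IDR list, as hsp-3 stood just inside. Its pooled signal was 66.0 (rank 371), beside 69.1 for hsp-3 and 66.8 for interval 360. In replicate 5 it ranked 154 with a signal of 55.8, and in replicate 6 it ranked 15728 with a signal of 12.1. The hsp-1 summit at 470 bp upstream was therefore high in 1 library and below the list's median in the other. It lay in an exon of the non-coding gene F26D10.23, 76 bp from that gene's start.

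The next genes in the pooled list were dnj-13, a cytosolic DnaJ gene, at rank 444, dnj-9 at rank 484, hsp-110, which encodes an exchange factor for HSP70, at rank 519, and dnj-29, the worm SEC63 gene, at rank 875. In the replicates dnj-13 ranked 644 and 1819, dnj-9 827 and 2427, hsp-110 1477 and 506, and dnj-29 1635 and 1246, with replicate 5 first. All 4 were among the 3000 best of both libraries and outside the 360 best of both. For dnj-29, however, no replicate 5 interval held the pooled summit. Its rank in replicate 5 is that of another interval in the window, with its summit 397 bp upstream of the start, against 169 bp in the pooled list. Of the 61 genes, 11 had a summit of the 1000 best pooled intervals in the window (18.0%), against 2.15% of all coding genes.

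A pooled interval of any rank was found for 37 of the 61 genes (60.7%, against 33.6% of all coding genes). Most of these intervals are weak, since the list runs to a q-value of 0.906. With genes lacking an interval placed last, the middle one of the 61 had rank 18661. Summits lay upstream of the start in 26 of the 37 (70.3%), against 46.1% of all coding genes with an interval, and the median distance was 233 bp against 215 bp. More annotated starts give a gene more room to be counted. The 61 genes had a mean of 1.59 starts against 1.49, and 42.6% had multiple starts against 27.4% of all coding genes. For the 6 ER genes the mean was 2.0 and the share with multiple starts 66.7%. Another coding start was nearer to the summit in 11 of the 37. For 8 of the 37 the summit was within 500 bp of a non-coding RNA start, none of them a tRNA, snoRNA or snRNA. The matching shares of all coding genes were not counted.

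**Figure D2:**
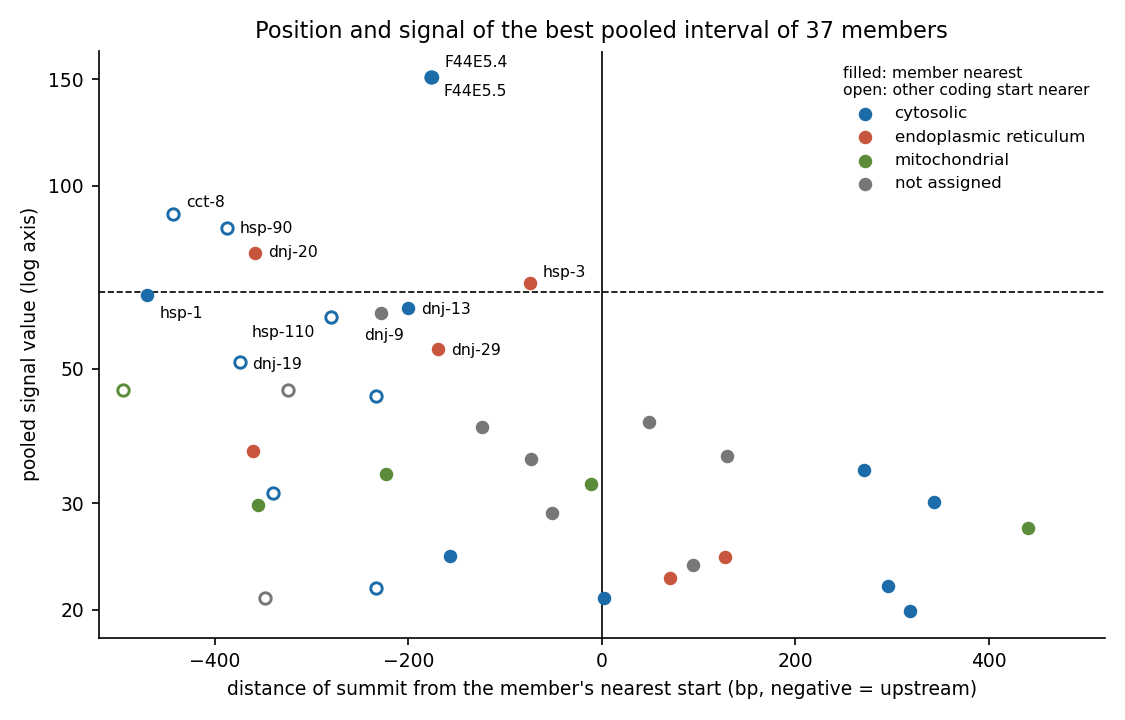
Distance of the best pooled summit from the gene's nearest start (bp, x axis) against its pooled signal value (log y axis) for 37 genes, coloured by compartment. Open points have another coding start nearer and the dashed line is the lowest IDR signal (66.8). All points above the line lie upstream, at 74 to 443 bp.

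By compartment, an IDR summit near a start was found for 4 of 25 cytosolic genes (16%), 2 of 6 ER genes (33.3%) and 0 of 6 mitochondrial genes, against 0.941% of all coding genes. No IDR summit was near a start of the 24 unassigned genes. At that background share, counts of 0 among 6 or 24 genes do not set these groups apart. A pooled interval was found for 17 cytosolic genes (68.0%), all 6 ER genes, 5 mitochondrial genes and 9 unassigned genes (37.5%), against 33.6% of all coding genes, which the unassigned genes lie near. Groups of 6 are small, and their shares move by 16.7 percentage points with each gene.

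**Figure D3:**
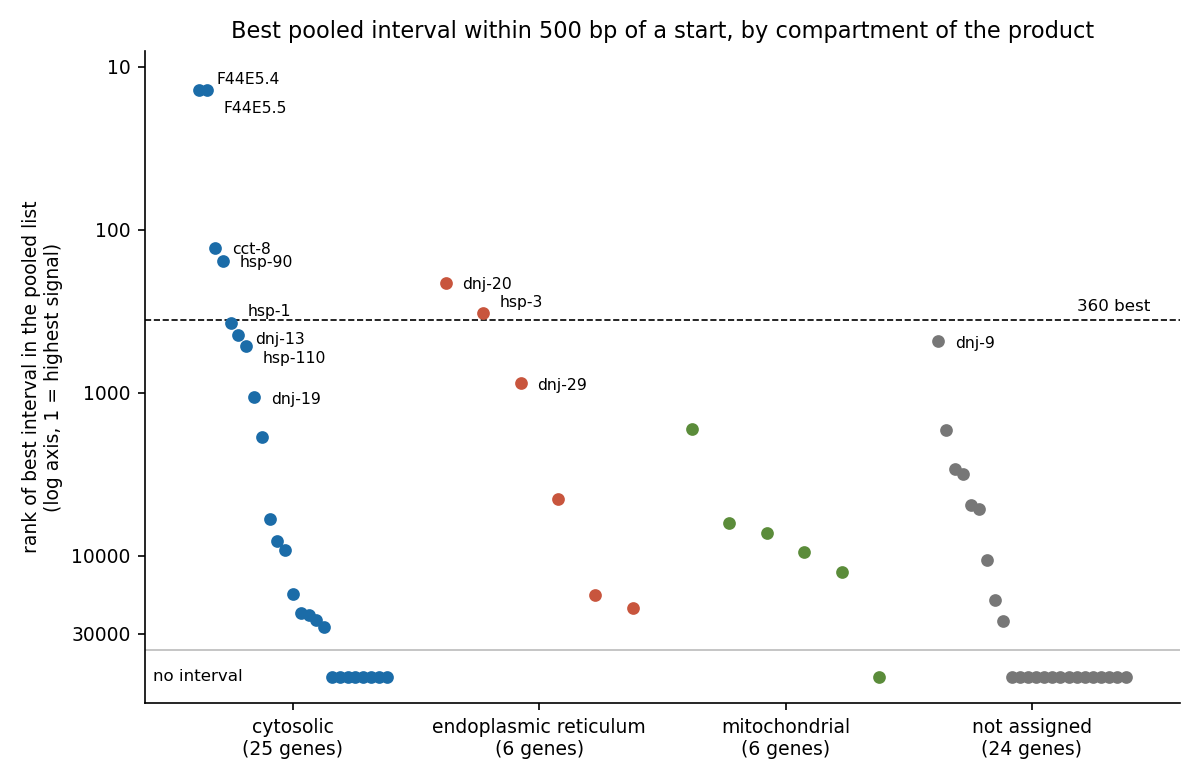
Rank of the best pooled interval within 500 bp of a start (log y axis, best at the top) for each of the 61 genes by compartment. Points below the grey line have no pooled interval, and the dashed line marks the 360 best. Cytosolic genes span rank 14 to 27294, ER genes 212 to 20842 and mitochondrial genes 1672 to 12616.

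In the ER group, hsp-4, the stress-inducible BiP gene and partner of hsp-3, had a weak interval: its pooled signal was 22.6 (rank 20842), with rank 3216 in replicate 6 and none in replicate 5. dnj-7, the worm P58IPK gene, had pooled rank 4490 and dnj-27, which encodes an ERdj5-type protein, had rank 17448. The 2 BiP genes thus stood far apart in these lists.

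In the mitochondrial group the matrix HSP70 gene hsp-6 came first, with a pooled signal of 46.1 (rank 1672), rank 7828 in replicate 5 and rank 2091 in replicate 6. Its summit was 495 bp upstream, near the edge of the window, and 105 bp from the start of C37H5.5. hsp-60, the mitochondrial chaperonin, had 27.3 (rank 12616) within the window. An IDR summit with a signal of 132 (pooled rank 26) lay 608 bp upstream of an hsp-60 start, just outside the window, so the count of 0 for this group depends on the distance chosen. The protein-import gene dnj-21 had rank 6311, dnj-10 rank 7235 and dnj-15 rank 9477, and the mitochondrial HSP90 gene hsp-75 had no interval in any list within 500 bp of its start.

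All 8 HSP70 genes had a pooled interval near a start (33.6% of all coding genes), and 3 of them an IDR summit (0.941% of all coding genes), of which F44E5.4 and F44E5.5 share 1. The heat-inducible hsp-70, 76.5% identical to F44E5.4 over the aligned gene, had a pooled signal of 20.9 (rank 24735) with its summit 2 bp from its start and no replicate interval. Within 100 bp of its summit there was 1 run of 3 adjoining units, against 4 at the summit between F44E5.4 and F44E5.5. The 2 loci stood at ranks 24735 and 14. Among the CCT genes, whose products form 1 ring, cct-8 was the only one with an IDR summit near a start. cct-1 followed with 45 (rank 1855), then cct-7 (rank 5930), cct-4 (rank 17231), cct-5 (rank 22394) and cct-6 (rank 22990), and cct-2 and cct-3 had none.

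Of the 13 small heat shock protein genes, 0 had an IDR summit near a start and 4 (30.8%) a pooled interval, shares near the 0.941% and 33.6% of all coding genes. The 4 were hsp-25 (rank 3161), hsp-12.1 (rank 5125), hsp-17 (rank 10528) and hsp-16.2 (rank 27294, pooled signal 19.9). The hsp-16 genes, the classical heat-inducible genes of this family, number 6, and the other 5 had no interval near a start in any list. For the 2 genes named hsp-16.1 and the 2 named hsp-16.48, which are 100% identical copies, no 31-base word within 500 bp of the starts was unique in the genome. A missing interval there cannot be told apart from reads that could not be placed. For hsp-16.2 and hsp-16.41 the unique shares were 97.3% and 96.3%.

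Genes without a pooled interval near a start, 24 in all, were cct-2, cct-3, dnj-1, dnj-2, dnj-3, dnj-5, dnj-11, dnj-16, dnj-17, dnj-18, dnj-22, dnj-23, dnj-26, dnj-30, hsp-12.2, hsp-12.3, hsp-12.6, both hsp-16.1 genes, hsp-16.41, both hsp-16.48 genes, hsp-43 and hsp-75. Of these, 20 had none in either replicate list. A pooled interval lay elsewhere in the gene or within 500 bp of its ends for 15 of the 24. The share of all coding genes for which this holds was not counted. Just past the edge of the window were the summits of dnj-18 at 552 bp and dnj-2 at 593 bp.

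Taking 3′ ends in place of starts, a comparison chosen after these values were seen, 6 genes again had an IDR summit in the window, and they were 6 other genes. They were hsp-6, cct-7, hsp-1, dnj-5, hsp-60 and hsp-110, 9.84% of the 61 against 214 of all coding genes (1.07%). All 6 summits lay past the 3′ end, at 43 to 231 bp, as did 78.0% of the summits at all 214 genes. By compartment these were 3 cytosolic, 0 ER, 2 mitochondrial and 1 unassigned gene. Together, 12 of the 61 genes (19.7%) had an IDR summit at a start or a 3′ end, against 384 of all coding genes (1.92%). Most of the 384 likewise had it at 1 end only, with 188 at a start and 214 at a 3′ end. The lack of overlap therefore does not set the 61 genes apart.

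Several of these 3′ summits outranked every start summit other than that of the F44E5.4 pair. For cct-7 the signal was 133 in the pooled list (rank 25), 93.2 in replicate 5 (rank 14) and 49.2 in replicate 6 (rank 68), with the summit 210 bp past the end, in the 3′ UTR of zig-11. For hsp-6 it was 110 (rank 64), 58.7 (rank 122) and 54.7 (rank 36) in the same lists, 195 bp past the end and outside annotated genes. Both were among the 360 best of each replicate, while their start intervals were not.

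hsp-110 had 98.1 at its 3′ end (pooled rank 95, ranks 53 and 316 in replicates 5 and 6), 119 bp past it, although the start of ufbp-1 was 184 bp away. hsp-1 had 90.4 (pooled rank 129, ranks 344 and 94), 231 bp past its end in the 3′ UTR of nra-1. The 2 replicate ranks of hsp-1 lay closer together at its 3′ end than at its start. hsp-60 had 74.6 (pooled rank 237, ranks 852 and 167) at 43 bp past the end, and dnj-5 had 74.4 (pooled rank 241, ranks 677 and 384) at 216 bp, in a non-coding exon and 41 bp from a tRNA gene start. These last 2 were outside the 360 best of at least 1 replicate.

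**Figure D4:**
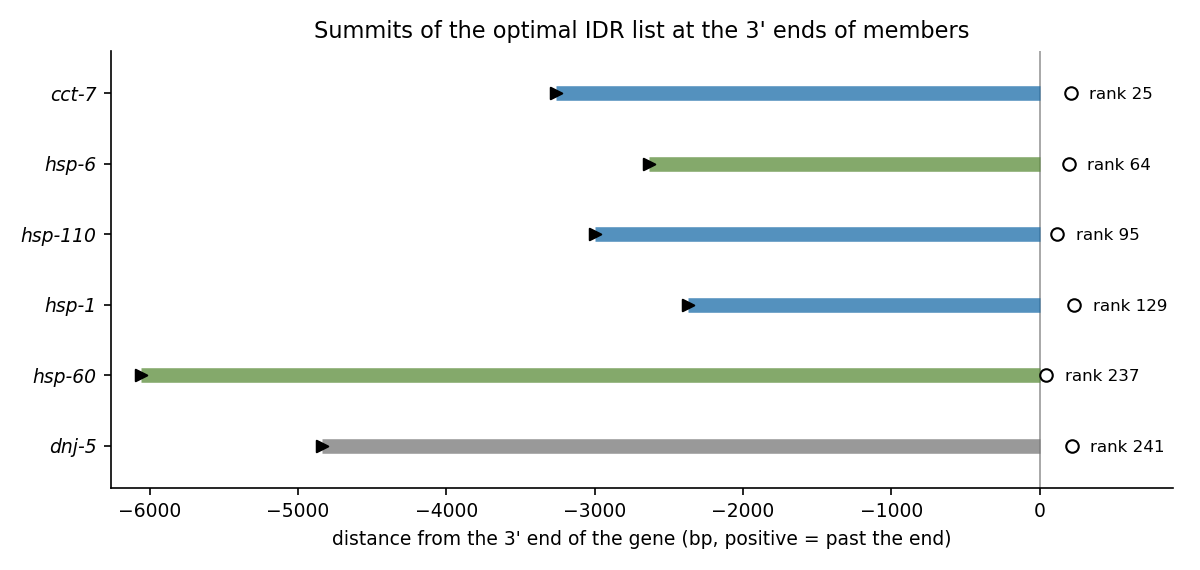
The 6 genes with an IDR summit near the 3′ end, drawn to scale from start (triangle) to 3′ end at 0 bp, blue for cytosolic, green for mitochondrial and grey for unassigned. Open circles are the summits, 43 to 231 bp past the ends, with the pooled rank beside each.

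Leaving out IDR summits within 500 bp of any coding start removed 1 of the 6 genes, hsp-110. The hsp-6 summit was kept only narrowly, since the start of adss-1 was 506 bp away. Of the 360 IDR summits in all, 156 (43.3%) were near a coding start and 167 (46.4%) near a coding 3′ end, with 78 near both. Among the 360 best of replicate 5 a summit near a 3′ end was found for 4 of the 61 genes (6.56%, against 0.936% of all coding genes), and of replicate 6 for 6 genes (9.84%, against 1.17%). The 4 in replicate 5 were cct-7, hsp-1, hsp-110 and hsp-6, and replicate 6 added hsp-60 and hsp-90. A pooled interval of any rank was near the 3′ end of 43 genes (70.5%, against 34.4%).

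Turning to the replicates at the starts, 7 genes were among the 360 best of replicate 5 (11.5%, against 0.881%), namely the 6 with an IDR summit and hsp-1. In replicate 6 there were 4 (6.56%, against 0.831%), namely F44E5.4, F44E5.5, cct-8 and hsp-90. The same 4 were in both (6.56%, against 0.396%), and all 4 are cytosolic. Of these, F44E5.4 and F44E5.5 share an interval, and another coding start was nearer to the pooled summits of cct-8 and hsp-90. An interval of any rank was found for 31 genes in replicate 5 (50.8%, against 33.9%) and 29 in replicate 6 (47.5%, against 33.9%).

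Of the 61 genes, 22 had an interval in both replicate lists, 9 in that of replicate 5 alone, 7 in that of replicate 6 alone and 23 in neither. Over the 22, the median log2 ratio of the rank in replicate 6 to that in replicate 5 was 0.44 (0.055 over all coding genes in both lists), and 13 ranked better in replicate 5 (59.1%, against 51.5% of 3529 coding genes). This median was 1.36 with a window of 250 bp and 0.11 with one of 1000 bp. The largest shifts toward replicate 5 were those of hsp-1 (log2 ratio 6.67), F44E5.4 and F44E5.5 (3.77 each, from 1 shared interval), cct-1 (2.06) and dnj-7 (1.73). Toward replicate 6 they were those of hsp-6 (−1.90), cct-8 (−1.77), hsp-110 (−1.54), dnj-10 (−1.46) and dnj-19 (−1.42). The 3 mitochondrial genes in both lists, hsp-6, dnj-10 and hsp-60, all ranked better in replicate 6, although for hsp-60 the replicates gave different intervals and no replicate 5 interval held its pooled summit. By the same measure 8 of 12 cytosolic and 3 of 4 ER genes ranked better in replicate 5. F44E5.4 and F44E5.5 are each counted there from 1 shared interval. For dnj-25, dnj-20 and dnj-29 the best interval of 1 replicate was not one that held the pooled summit. With 1 library per replicate these differences have no error of their own.

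**Figure D5:**
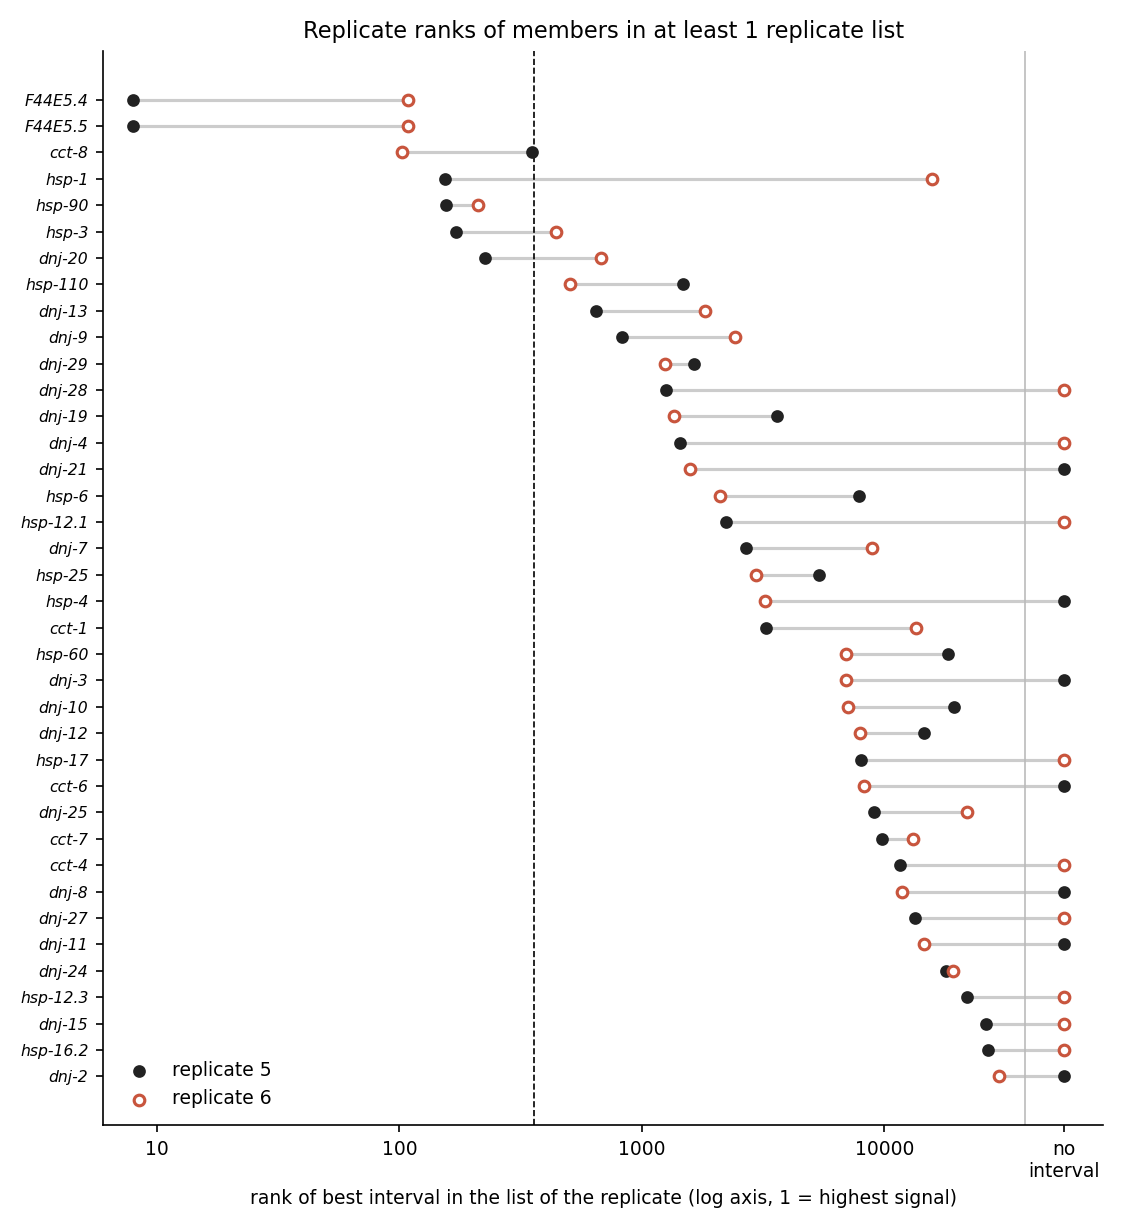
Rank of the best interval near a start in replicate 5 (filled) and replicate 6 (open) on a log x axis for each gene found in at least 1 replicate list. Points right of the grey line have no interval, and the dashed line marks the 360 best. F44E5.4, F44E5.5, cct-8 and hsp-90 are left of it in both replicates, and hsp-1 spans rank 154 to 15728.

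Heat shock unit pairs were more frequent near the starts of these genes than near those of all coding genes. In the promoter, taken as 250 bp before to 50 bp after the 5′ end, 3 adjoining units of alternating direction were found in 13 of 61 genes (21.3%), against 1.98% of all coding genes. They were F44E5.4, F44E5.5, hsp-90, hsp-1, hsp-70, hsp-110, dnj-12 and the 6 hsp-16 genes. F44E5.4 and F44E5.5, and likewise the hsp-16 genes, stand in divergent pairs whose promoters so taken overlap, and some hsp-16 genes are identical copies. The 13 genes are therefore not 13 separate regions, and the promoter shares count each gene. Of the 13, 3 had an IDR summit near a start and 8 a pooled interval, against 0.941% and 33.6% of all coding genes. The 3 were F44E5.4 and F44E5.5, which share 1 summit, and hsp-90. The hsp-90 summit lay 855 bp downstream of the 5′ end that sets its promoter, with 0 runs of 3 adjoining units within 100 bp. TTCNNGAA was in 37.7% of the promoters against 19%, and GAANNTTC in 44.3% against 18.6%.

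Within 100 bp of the 36 distinct best pooled summits, TTCNNGAA was found in 9 (25%, against 12% of all 30000 pooled summits) and GAANNTTC in 12 (33.3%, against 12.1%). 3 adjoining units were found in 3 of the 36, those of F44E5.4 and F44E5.5, hsp-70 and hsp-110, against 1.05% of all pooled and 2.5% of all IDR summits. Of the 5 IDR summits, 3 had GAANNTTC and 2 TTCNNGAA, against 12.2% and 11.1% of all 360. TGACGTG was within 100 bp of 4 of the 36 summits (11.1%, against 1.95%), those of hsp-3, dnj-7, dnj-15 and dnj-29. Of these, hsp-3, dnj-7 and dnj-29 encode ER proteins. In promoters it was found in 5 of the 61 genes (8.2%, against 2.95%), namely hsp-3, hsp-4, dnj-20, dnj-28 and dnj-29. The best pooled summits of hsp-4, dnj-20 and dnj-28 had no TGACGTG within 100 bp. TGACGTCA, the cAMP response element, was found at none of the 36, against 1.38%. A match is a description of letters, and the heat shock units overlap each other in arrays. The median GC content was 41% in the members' summit windows and 40.3% in those of all pooled summits, and the part of base composition in these shares was not tested.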

How the data were processed

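Peak lists of ChIP-seq of GFP-tagged F57C9.4 from 2 replicates of 1 group were used as deposited on build ce11. Per the file headers and labels, the authors made lists per replicate, a list from pooled replicates and the optimal IDR list. The sources used here name no aligner, peak caller or version. The signal value deposited for each interval served only to rank intervals within a list, the deposited −log10 q-value to describe them, and the deposited summit offset to place summits. No read counts were used, so the depth of each library, and with it the counting error, is unknown.

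Summits were set against starts and 3′ ends in Ensembl release 115 with a window of 500 bp, with Python 3.11.15, pandas 2.3.3, NumPy 2.4.6 and Biopython 1.88, and the counting was tested on simulated intervals. Genes were named if they had an IDR summit, were among the 360 best of a replicate, had one of the 5 largest replicate shifts in a direction, lacked an interval, or were HSP70, hsp-90, hsp-60, cct or hsp-16 genes; the others were chosen after their values were seen. The genes, lists and compartments were chosen with earlier results of these data known. Alternatives were other windows, starts, list lengths and single replicates.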

Additional observations from a re-analysis of the deposited data

How the results depend on the processing

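The count of genes with an IDR summit near a start was 6, and the 360 best of 1 replicate alone gave 4 (replicate 6) and 7 (replicate 5). A window of 250 bp gave 3 genes (2 cytosolic, 1 ER), against 0.566% of all coding genes. At 250 bp a pooled interval was found for 22 genes, and 3 and 2 genes were among the 360 best of replicates 5 and 6. The median pooled rank was then 5718, beside 4884 over the 37 genes with an interval at 500 bp. The median log2 rank ratio was 1.36, beside 0.44. A window of 1000 bp gave 7 genes, against 1.37% of all coding genes, and 1 of the 7 was mitochondrial. Counting an interval that overlaps the window by 1 bp also gave 1 mitochondrial gene. With 1000 bp the median rank was 4248.5 and the ratio fell to 0.11, beside 0.055 for all coding genes at 500 bp. Using the 5′ end of each gene alone gave 4 genes (against 0.836% of all coding genes), of which 1 was an ER gene, and a median rank of 5527.5. Counting the nearest coding start alone gave 3 genes (1 cytosolic), against 0.781% of all coding genes. It gave 4 and 2 among the 360 best of replicates 5 and 6, a median rank of 6311 and a ratio of 1.03. The stronger part of the IDR list, 180 intervals, gave 0 ER genes, and leaving out 1 replicate gave 0 to 2 ER genes and median ranks of 3216 to 3239. The 1000 best intervals of replicate 6 gave 7 genes, against 1.96% of all coding genes. Taking the summit nearest to a start gave a median rank of 8618. Without F44E5.4 and F44E5.5, added after seeing the data, 2 cytosolic genes were left. Counts and median ranks cannot change sign, so a reversal was possible only for the median log2 rank ratio, which stayed positive (0.11 to 1.36). The order of compartments did change. The main setting gave 2 of 6 ER genes (33.3%) against 4 of 25 cytosolic genes (16%). The 180 stronger IDR intervals, and replicate 6 alone, gave 0 ER and 4 cytosolic genes. In the other settings run the ER share stayed the higher. The count at 3′ ends stayed between 4 and 8 under the 5 alternatives run. For the other alternative counts no share of all coding genes is given here, so they are not set against a background. Unless the setting itself removes intervals or genes, the cause was not tested. No paired analysis was possible because there is 1 group. Depth is unknown, the median interval is 404 bp wide (416 bp in replicate 6), and a gene without an interval may be below what these lists hold.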

Other observations

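Other genes of protein folding and its stress responses, a list of 36 that the gene names above leave out, had an IDR summit near a start in 1 case (2.78%, against 0.941% of all coding genes) and a pooled interval in 26 (72.2%, against 33.6%). The 1 was ubl-5, which encodes a ubiquitin-like factor of the mitochondrial unfolded protein response, with a signal of 74.5 (pooled rank 240), rank 80 in replicate 5 and no interval near the start in replicate 6. Next came the ER genes pdi-2, a disulfide isomerase, with 61.4 (rank 503, ranks 3762 and 305 in replicates 5 and 6) and crt-1, calreticulin, with 60.8 (rank 526, ranks 647 and 2450). bag-1, an HSP70 cofactor, ranked 844 and the mitochondrial protease gene clpp-1 ranked 1246. Regulators of the stress responses were spread over the list, with atfs-1 at rank 3152, hsb-1 at 8709, atf-6 at 10622, ire-1 at 12147, dve-1 at 12502, xbp-1 at 19062 and hsf-1 at 20429, while atf-4 and pek-1 had no pooled interval near a start. At 3′ ends 2 of the 36 had an IDR summit (1.07% of all coding genes had one), unc-45, which encodes a myosin chaperone, and xbp-1. The median pooled rank of the 26 was 11921, beside 12612.5 for all coding genes with an interval.

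The highest pooled interval in hsp-70 lay in the gene, 478 bp before its 3′ end, with a signal of 54.2 (rank 856), against rank 24735 at its start. For hsp-16.41 the best lay 595 bp downstream of the start with 41 (rank 2853).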
